A study of Mus musculus with 2 samples.

Results

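The genes described here are the cell cycle module of osteoblasts: 42 genes for cyclins, cyclin-dependent kinases (CDKs) and their inhibitors, DNA replication and mitosis, chosen as a named list of cell cycle genes. A gene was taken if a probe set, the group of short oligonucleotides that reads 1 transcript on the array, was annotated to that symbol alone. This held for 41 of the 42 genes, out of 18193 genes on the array; no probe set was annotated to Ccnb1, cyclin B1, alone, and no expression value is given for it. The members were divided into 13 G1 regulators, 10 replication genes and 19 mitotic genes.

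The study compared primary osteoblasts from newborn wild-type mice with those from newborn Slc39a13-KO mice, which lack Slc39a13, a member of the SLC39/ZIP group of zinc transporters. In the knockout line, made by homologous recombination in ES cells, a Neo cassette replaced the exons that encode the motif shared by this family, and homozygous animals were obtained by interbreeding. Osteoblasts were released from calvaria, the skull vault, by stepwise collagenase and dispase digestion and cultured with fetal calf serum, and the labels describe both groups in this same way and name no treatment. Of the pups, the sources used here give neither number nor sex nor genetic background. There was 1 array for wild-type and 1 for Slc39a13-KO, so no difference below has a replicate check or a p-value.

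A dividing cell passes from G1, in which it commits to division, through DNA replication to mitosis. D-type cyclins with Cdk4 or Cdk6, and then E-type cyclins with Cdk2, inactivate the retinoblastoma protein and release E2F factors, which switch on replication genes. CDK inhibitors of the INK4 family bind Cdk4 and Cdk6, and those of the Cip/Kip family act on CDK complexes more widely. In bone, precursors proliferate and leave the cell cycle as they mature.

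Values are MAS5 signals in arbitrary units on a linear scale. Signals below 85.1, the median of all signals, were raised to this floor, and probe sets whose mean log2 signal over both arrays lay above the floor are called measured. Ratios are Slc39a13-KO over wild-type on the log2 scale, and a gene takes the mean over its measured probe sets. Genes are called higher or lower where this mean reached 2-fold and no measured probe set pointed the other way. Of the 42 genes, 40 were measured, by 82 of 100 probe sets. The exception among genes on the array was Tyms, thymidylate synthase, whose 4 probe sets lay below the floor in both arrays (signals from 4.51 to 64.5 in wild-type and from 1.51 to 54.6 in Slc39a13-KO). The spread between probe sets of a gene is the one spread available, and it does not measure variation between cultures or animals. The SD of the log2 ratio between probe sets of a member had a median of 0.21, against 0.34 for all genes.

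Some facts of the whole arrays bear on every value below. The signal of Slc39a13 itself was 1309 against 90.4, or 14.5-fold lower in the knockout, as labelled, although whether its 1 probe set lies in the removed exons was not established. The median log2 ratio of 11237 measured genes was 0.11, and 57.7% of them lay above 0. All 24 poly-A control probe sets, bacterial transcripts that are spiked into the RNA, read lower in Slc39a13-KO, with a median log2 ratio of -1.02. Scaling on these controls moved the median of all genes by 0.92, and scaling on the array medians moved it by -0.24. Directions below are given against 0 in the deposited signals unless stated, so they depend on the scaling. With poly-A scaling 11 of 13 G1 regulators (all but Cdkn1a and Cdkn2b), all 9 measured replication genes and all 18 mitotic genes lay above 0. The 3′ over 5′ signal ratio, a measure of RNA integrity, was 1.30 and 1.26 for actin and 0.796 and 0.752 for Gapdh, in wild-type and Slc39a13-KO.

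The cultures also differed in markers of cell types. Osteoblast markers were partly present, with 9 of 18 measured, 3 of them called higher and 1 lower and summed signals of 172569 and 213059. Omd, osteomodulin, read 357 and 24252 (67.9-fold higher) and makes up much of that rise. Pth1r, the parathyroid hormone receptor, was 5.20-fold higher and Msx2 at least 4.39-fold lower. Col1a2, type I collagen, had signals of 28503 and 25943. The maturation factor Sp7 stood near the floor (94.8 and 153.5), and Ibsp, Mepe and Phex lay below it in both arrays. Dmp1 did not count as measured, but its 3 probe sets lay above the floor in Slc39a13-KO. They read 2.11, 1.06 and 21.1 in wild-type and 673, 483 and 173 in Slc39a13-KO. Of 23 chondrocyte markers 18 were measured and 17 were at least 2-fold higher in Slc39a13-KO, led by Cnmd (at least 623-fold) and Cytl1 (at least 163-fold), and their summed signal was 13422 in wild-type and 230295 in Slc39a13-KO. Of 13 measured smooth muscle markers 8 were lower, led by Actg2 (41.7-fold) and Mcam (at least 10.5-fold), with summed signals of 84515 and 35110, and 1 was higher (Smtn, 3.56-fold). Of 25 macrophage and osteoclast markers 10 were measured, with 5 called higher and 1 lower (summed signals 6784 and 10112). Lyz2 was 8.41-fold and C1qb at least 4.15-fold higher and Cd53 3.50-fold lower, with Ptprc, Itgam and Fcgr1 below the floor in both arrays. Of 5 measured adipocyte markers 3 were higher (1211 and 3867 in sum), led by Pparg (at least 10.2-fold) and Fabp4 (at least 6.29-fold), with Adipoq below the floor. Of 5 measured endothelial markers Erg was 8.20-fold higher, while Ptprb (at least 12.3-fold) and Flt1 (by 2.33-fold or more) were lower (6015 and 3114 in sum), with Pecam1 and Kdr below the floor. The part of these shifts in the cell cycle values was not tested, and in such bulk samples fewer cells of a type and less RNA per cell cannot be told apart.

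Few cell cycle genes were called. CDK inhibitors held the largest differences in both directions: Cdkn2b and Cdkn1a were 4.93-fold and 3.12-fold lower in Slc39a13-KO, and Cdkn2c was 3.90-fold higher. Genes of replication and mitosis lay mostly above wild-type by less than 2-fold, led by Mcm6 (2.38-fold) and Kif11 (2.06-fold). Ribonucleotide reductase and cyclin E1 lay on the other side. In all, 3 of 40 measured members were at least 2-fold higher, where the share over all measured genes was 8.77%, and 2 were lower, where it was 6.37%. The members' shares were 7.50% and 5.00%, both near that background. At a lower threshold of 1.5-fold, 14 members were higher (35.0%, against 20.7% of all genes) and 6 lower (15.0%, against 12.7%).

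**Figure D1:**
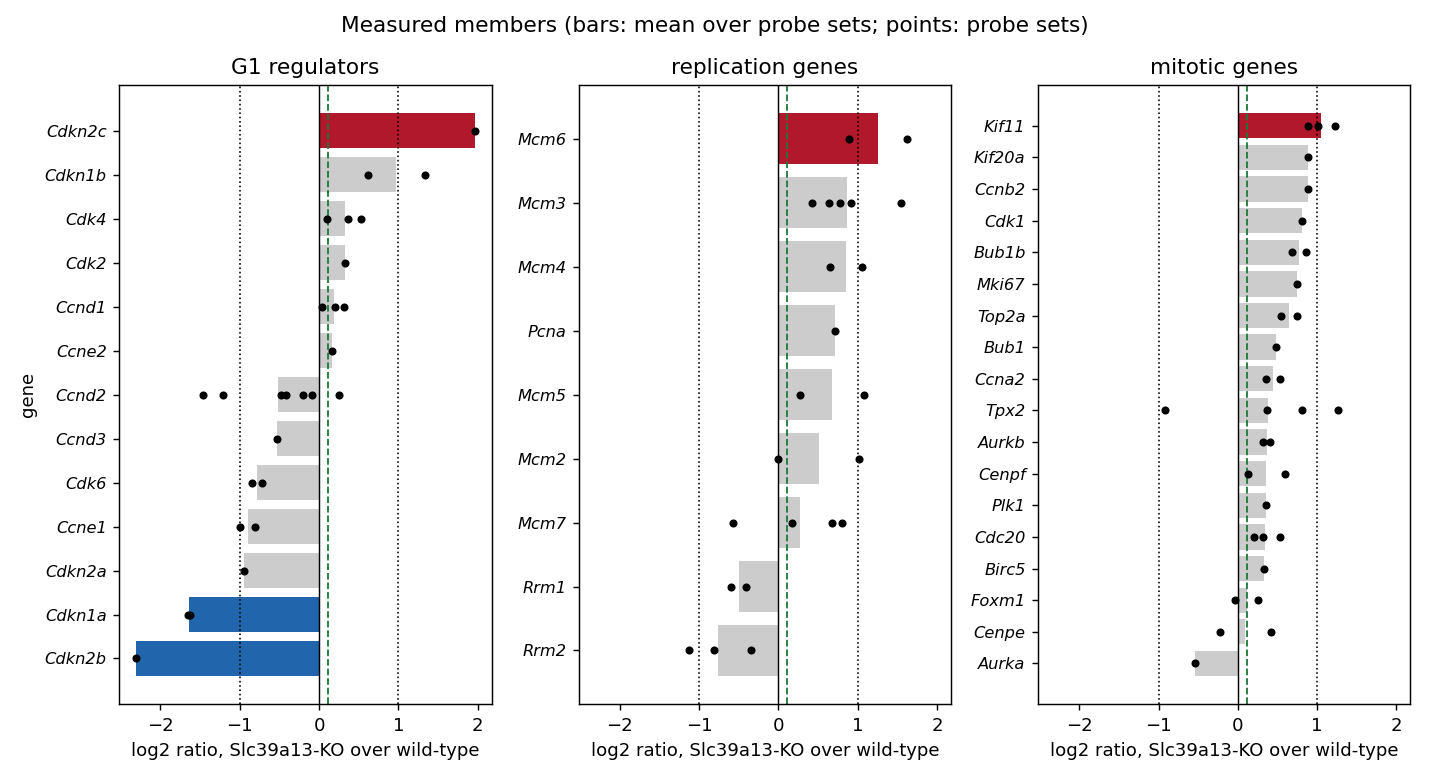
Log2 ratio, Slc39a13-KO over wild-type (horizontal axes), of each measured cell cycle gene in 3 panels (13 G1 regulators, 9 replication genes, 18 mitotic genes), with bars for the mean over the probe sets of a gene and black points for single probe sets. Red bars were called at least 2-fold higher and blue bars at least 2-fold lower, dotted lines mark 2-fold and the green dashed line the median of all genes (0.11). The G1 panel spreads from -2.30 (Cdkn2b) to 1.96 (Cdkn2c), whereas 17 of 18 mitotic bars point to the right.

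CDK inhibitors of both families lay on both sides of the median of all genes. Cdkn1a, p21 of the Cip/Kip family and a well-known target of p53, was read by 2 probe sets. They had signals of 15794 and 4206 in wild-type and 5015 and 1363 in Slc39a13-KO. Both probe sets were thus lower by nearly the same factor (log2 ratio -1.64, SD 0.02 between them). Cdkn1b, p27 of the same family, which holds cells in quiescence, had signals of 515 and 221 in wild-type and 787 and 559 in Slc39a13-KO. Both were higher, with a log2 ratio of 0.97 (SD 0.51), just short of the 2-fold threshold. Cdkn1c, p57, the remaining member of this family, named after its value was seen, read 319 in wild-type against 563, a log2 ratio of 0.82 that fell short of the call.

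Cdkn2b, p15 of the INK4 family, known to be induced by TGF-β, rests on 1 probe set here, at 7628 in wild-type and only 1546 in the knockout (log2 ratio -2.30). Its neighbour on chromosome 4, Cdkn2a, encodes p16 and, in another reading frame, p19Arf. Its 1 probe set gave 409.8 and 212.4 (log2 ratio -0.95) and was not called, though it passed 2-fold with median, quantile and loess scaling. This probe set was not assigned here to either product. Cdkn2c, p18, differed the other way, and its 1 probe set read 575 in wild-type but 2245 in the knockout (log2 ratio 1.96). Cdkn2d, p19 of the INK4 family and also named after its value was seen, had 727 and 693. Of the 4 INK4 genes, 1 was thus called higher and 1 lower. Apart from Cdkn1a and Cdkn1b, each of these inhibitor values rests on a single probe set.

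No D-type cyclin and neither of their kinases was called. Ccnd1, cyclin D1, the cyclin that links growth signals to the cell cycle, had signals from 5138 to 14303 over 3 probe sets in wild-type and from 6386 to 16520 in Slc39a13-KO (log2 ratio 0.19, SD 0.14). Ccnd2, cyclin D2, was read by 7 probe sets, from 1078 to 30986 in wild-type and from 1283 to 23146 in Slc39a13-KO. The probe sets of Ccnd2 differed among themselves. Their log2 ratios ran from -1.47 to 0.25 with a mean of -0.52 (SD 0.61), 6 were below 0 and the brightest read -0.42. Ccnd3, cyclin D3, had 3107 and 2158 in its measured probe set (log2 ratio -0.53). Cdk4 was at 0.33 (SD 0.21 between 3 probe sets). Cdk6, the alternative partner of D cyclins, had 1343 and 1339 in wild-type and 749 and 817 in Slc39a13-KO, a log2 ratio of -0.78 (SD 0.09), past 2-fold with median scaling, so that the kinases lay on opposite sides of the median of all genes.

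The E-type cyclins, which drive entry into replication with Cdk2, also differed from each other. Ccne1 had signals of 825 and 410 in wild-type and 473 and 207 in Slc39a13-KO. Both probe sets were lower, with a log2 ratio of -0.90 (SD 0.13), below the call at 2-fold, which it passed with median, quantile and loess scaling. Ccne2 had 474 and 532 (log2 ratio 0.17) and Cdk2 423 and 528 (0.32). Of the 13 G1 regulators, 1 was called higher (7.69%, against 8.77% of all genes) and 2 lower (15.4%, against 6.37%). As a group they had a median log2 ratio of -0.52, against 0.11 for all genes. This median rests on the genes in the middle of a wide spread. With no floor it was 0.14, close to the 0.16 of all genes, since the dim probe sets of Ccnd3 (150.9 and 33.7, 6.36 and 54.6) then entered its mean.

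**Figure D2:**
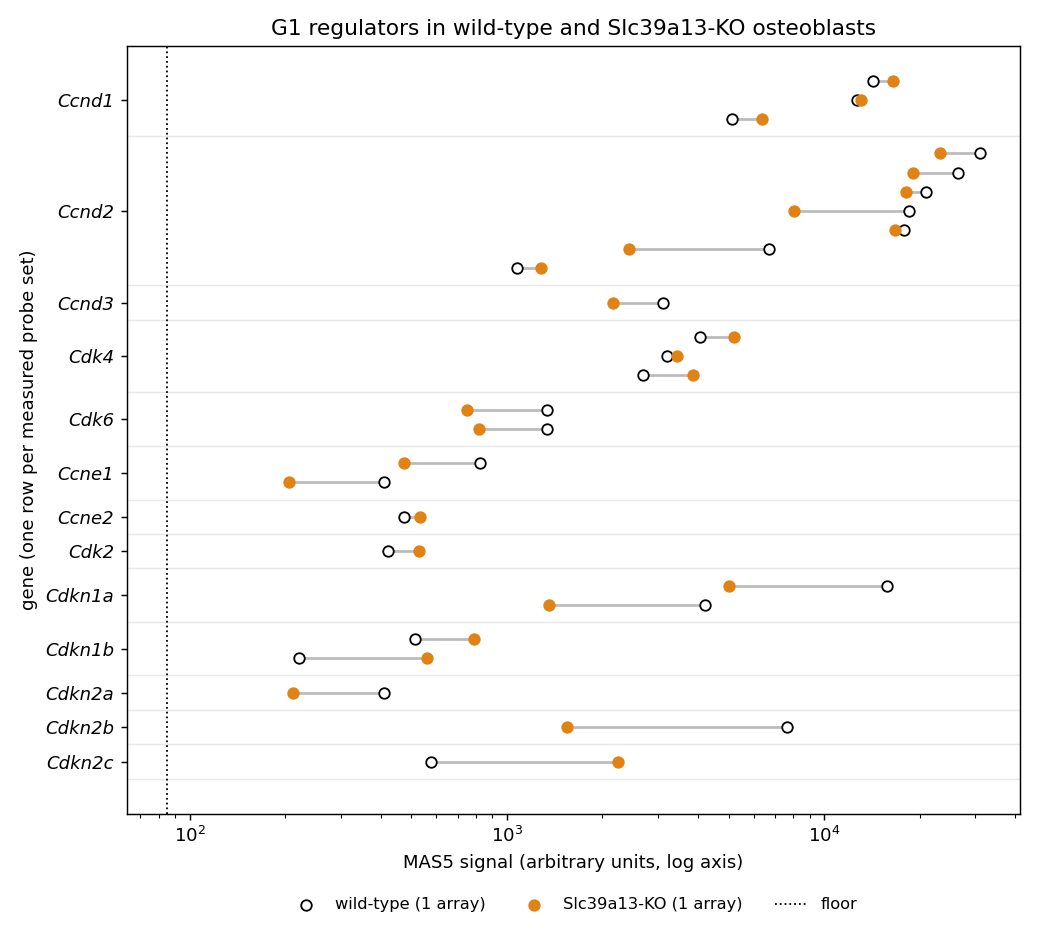
Signals of the measured probe sets of the 13 G1 regulators (horizontal axis, MAS5 units, log axis), 1 row for each probe set, with open circles for the wild-type array and orange circles for the Slc39a13-KO array. Orange lies far to the left for Cdkn1a (both probe sets) and Cdkn2b, far to the right for Cdkn2c, and on both sides over the 7 probe sets of Ccnd2; the dotted line is the floor of 85.1.

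Of the 9 measured replication genes, 7 lay above wild-type and Rrm1 and Rrm2 below it. The genes of the MCM helicase, a ring of related subunits that unwinds DNA at the replication fork, all had mean log2 ratios above 0, from 0.27 (Mcm7) to 1.25 (Mcm6), with a median of 0.76 over 6 genes. Mcm6 had signals of 888 and 586 in wild-type and 2722 and 1084 in Slc39a13-KO (SD 0.52 between 2 probe sets). Mcm4 had 1068 and 615 in wild-type and 1684 and 1276 in Slc39a13-KO (log2 ratio 0.86, SD 0.28). Mcm3, with 5 probe sets all above 0, was at 0.86 (SD 0.43), Mcm5 at 0.67 (SD 0.58) and Mcm2 at 0.51 (SD 0.73). Mcm2 read 377 and 765 in one probe set but 1008 and 1001 in the other, and Mcm7 had 1 of its 4 probe sets below 0 (734 and 494). Pcna, the sliding clamp of DNA polymerase, read 4093 in wild-type against 6739 in the knockout (log2 ratio 0.72). At 1.5-fold, 5 of the 9 measured replication genes were higher (55.6%, against 20.7% of all genes).

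Rrm1 and Rrm2 encode ribonucleotide reductase, the enzyme that makes deoxyribonucleotides. Rrm1, its large subunit, had 2165 and 1488 in wild-type and 1436 and 1122 in Slc39a13-KO (log2 ratio -0.50, SD 0.13). Rrm2, its small subunit, had 4019, 1307 and 919 in wild-type and 1841, 743 and 726 in Slc39a13-KO (log2 ratio -0.76, SD 0.40). All 5 measured probe sets of this enzyme were below 0, whereas 15 of 17 for the MCM genes were above it. Neither Rrm1 nor Rrm2 was called at 2-fold. Rrm2 was called lower with median scaling and with its brightest probe set, and both lay above 0 with poly-A scaling. The median of the replication genes was 0.67.

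The size of the MCM difference depended on the probe sets. Some Affymetrix names carry a suffix for probe sets that can read more than 1 transcript. The 7 measured MCM probe sets without such a suffix had a median log2 ratio of 1.05 (0.64 to 1.62), and the 10 with it had 0.54 (-0.57 to 0.89). For all genes the medians were 0.14 and 0.02. With unsuffixed probe sets alone, Mcm2, Mcm3, Mcm4, Mcm5 and Mcm6 were all at least 2-fold higher, and Mcm7 was not measured. Then 7 of 34 measured members were called higher in place of 3 of 40, and 9.47% of all genes in place of 8.77%. The cause of this difference was not tested.

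**Figure D3:**
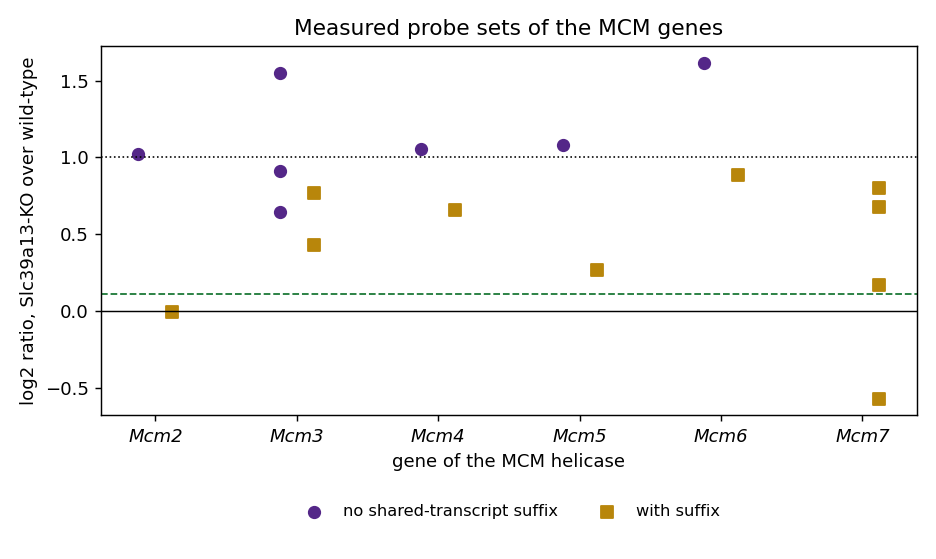
Log2 ratio, Slc39a13-KO over wild-type (vertical axis), of each measured probe set of the MCM genes (horizontal axis), with purple circles for probe sets without a shared-transcript suffix and yellow squares for those with one. The circles lie between 0.64 and 1.62 and the squares between -0.57 and 0.89; the dotted line marks 2-fold and the green dashed line the median of all genes.

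Mitotic genes lay above wild-type as a body, by small amounts. Of 18 measured, 17 had a mean log2 ratio above 0 (94.4%, against 57.7% of all genes) and 16 lay above the median of all genes. Their median was 0.41. Of the 18, 1 (Kif11) was called higher (5.56%, against 8.77% of all genes) and 0 were called lower. At 1.5-fold 7 were higher (38.9%, against 20.7% of all genes) and 0 lower. Kif11, the kinesin motor that separates spindle poles, had signals of 139, 89.2 and 73.7 in wild-type and 257, 209 and 171 in Slc39a13-KO (SD 0.17 between 3 probe sets). These wild-type signals stand close to the floor, and the lowest was below it. Kif11 fell short of 2-fold with median, quantile and loess scaling (log2 ratios 0.84 to 0.86).

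The genes higher by 1.5-fold or more belonged to several steps of mitosis. Cdk1, the kinase that starts mitosis, had signals of 1299 and 2274 (log2 ratio 0.81). Ccnb2, cyclin B2, its partner, had 413 and 765 (0.89). Kif20a, a kinesin of cytokinesis, had 384 and 712 (0.89). Mki67, the Ki-67 antigen used as a marker of cycling cells, had 534 and 897 (0.75). Top2a, the topoisomerase that untangles chromosomes, was at 0.64 (SD 0.14), and its brighter probe set had 974 and 1629. Bub1b, a kinase of the spindle checkpoint, had 195 and 181 in wild-type and 355 and 291 in Slc39a13-KO (0.77, SD 0.13). All probe sets of these genes that were measured were higher in Slc39a13-KO.

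The other mitotic members were closer. Ccna2, cyclin A2, was at 0.44 (SD 0.12 between 2 probe sets), and the checkpoint kinase Bub1 was at 0.48. Values between 0.32 and 0.38 were found for Plk1, a mitotic kinase (390 and 498), Cdc20, an activator of the anaphase-promoting complex, Birc5 (survivin) and Aurkb of the chromosomal passenger complex, the centromere protein Cenpf, and the spindle factor Tpx2. The 4 probe sets of Tpx2 ranged from -0.92 to 1.26 (SD 0.94), so its mean is weak. Foxm1, the transcription factor that drives many mitotic genes, was at 0.11 (SD 0.20), with 209 and 205 in its brighter probe set, and the kinesin Cenpe was at 0.10 (SD 0.45), so these differed by less than the spread between their probe sets. Aurka, the spindle pole kinase, was the only measured mitotic member below 0, at 510 in wild-type against 352 in the knockout (-0.54). In 4 member probe sets, of Top2a, Cdc20, Kif11 and Cenpf, the wild-type signal was raised to the floor, which makes their ratios smaller.

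Promoters of these genes are known for shared elements, so their letters were read from the RefSeq promoter table (GRCm38.p6), which held 33 of the 42 members, Ccnb1 and Tyms among them although neither has an expression value here. For each gene the 250 bases before its first listed start were searched on both strands for TTTGAA, the core of the cell cycle homology region (CHR) of mitotic promoters, for CCAAT, which binds the factor NF-Y, and for an E2F motif given as TTTCCCGC, TTTCGCGC, TTTGCCGC or TTTGGCGC. Whether these letters bear on the ratios was not tested. CCAAT also stood before Aurka, Rrm1 and Rrm2, which lay below wild-type. The CHR letters were found in 6 of 14 mitotic promoters (42.9%: Ccnb2, Cdc20, Cdk1, Kif11, Mki67 and Top2a), and in 16.3% of the windows of all 27025 genes in the table. CCAAT was found in 13 of 14 mitotic (92.9%) and 8 of 9 replication promoters (88.9%), and in 34.5% of all genes. The E2F letters were found in 3 of 9 replication promoters, those of Mcm5, Mcm6 and Mcm7, in 1 of 14 mitotic promoters, that of Cdk1, and in 1.91% of all genes. Of 10 G1 regulators, 1 had the CHR letters, 2 CCAAT and 2 the E2F letters. Of the members, 5 have more than 1 listed start, and counting a match before any of them changes 1 count, to 3 G1 regulators with CCAAT (Ccnd3 in addition). A match is a description of these letters and not a binding site.

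Windows are printed 5′ to 3′ on the strand of the gene, with matches to any of these motifs on either strand in capitals. Cdk1 (chr10:69352913-69353162, minus strand) holds all 3 motifs, Kif11 (chr19:37376132-37376381, plus strand) was the called mitotic gene, and Top2a (chr11:99024190-99024439, minus strand) has 6 matches to CCAAT. Mcm6 (chr1:128359706-128359955, minus strand) was the called replication gene and has 3 E2F matches, of which a pair overlap on opposite strands. Cdkn2b (chr4:89311033-89311282, minus strand), the inhibitor furthest below wild-type, is given beside them and has no CCAAT or E2F match, but 1 match to the CHR letters.
Cdk1: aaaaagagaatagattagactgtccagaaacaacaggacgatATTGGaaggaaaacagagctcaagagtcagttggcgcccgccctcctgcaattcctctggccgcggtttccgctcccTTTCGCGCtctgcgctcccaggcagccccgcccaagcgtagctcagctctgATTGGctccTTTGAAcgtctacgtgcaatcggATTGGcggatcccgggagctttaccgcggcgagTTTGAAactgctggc
Kif11: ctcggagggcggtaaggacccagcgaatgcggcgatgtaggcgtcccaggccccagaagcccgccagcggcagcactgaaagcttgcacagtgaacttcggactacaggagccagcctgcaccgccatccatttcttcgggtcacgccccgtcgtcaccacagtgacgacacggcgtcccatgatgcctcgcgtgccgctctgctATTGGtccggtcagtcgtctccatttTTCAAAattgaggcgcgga
Top2a: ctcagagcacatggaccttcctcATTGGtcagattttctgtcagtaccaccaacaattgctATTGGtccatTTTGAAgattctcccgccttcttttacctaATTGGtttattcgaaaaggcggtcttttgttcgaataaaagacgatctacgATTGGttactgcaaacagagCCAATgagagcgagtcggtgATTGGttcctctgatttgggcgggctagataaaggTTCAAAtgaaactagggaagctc
Mcm6: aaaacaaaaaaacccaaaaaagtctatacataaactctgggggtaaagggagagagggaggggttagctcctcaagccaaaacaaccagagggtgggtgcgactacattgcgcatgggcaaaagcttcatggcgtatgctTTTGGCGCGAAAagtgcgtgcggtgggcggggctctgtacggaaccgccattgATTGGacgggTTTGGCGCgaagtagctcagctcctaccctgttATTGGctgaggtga
Cdkn2b: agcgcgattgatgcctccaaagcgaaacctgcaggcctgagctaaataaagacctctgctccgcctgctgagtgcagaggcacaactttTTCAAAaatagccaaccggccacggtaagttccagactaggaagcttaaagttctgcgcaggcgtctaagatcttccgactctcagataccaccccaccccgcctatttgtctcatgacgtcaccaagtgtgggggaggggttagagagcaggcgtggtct

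Further genes of the same pathways were read from wider lists. Outside the members 43 replication genes were measured. Among them 2 were called higher (4.65%, against 8.77% of all genes) and 0 were called lower. Above 0 lay 34 (79.1%, against 57.7% of all genes), and the median was 0.41. The called genes were Pold3, a subunit of DNA polymerase delta (at least 2.30-fold), and Rpa2, of the single-strand binding complex (2.03-fold). Among 74 further mitotic genes, 2 were called higher (2.7%, against 8.77%) and 1 was called lower (1.35%, against 6.37%). Of the 74, 57 lay above 0 (77.0%, against 57.7% of all genes), with a median of 0.29. Dlgap5, a spindle protein, was 2.95-fold and Nuf2, of the kinetochore, 2.09-fold higher. Gtse1, which binds p53 and was the gene called lower, had 753 and 314. These shares of calls were below those of all genes, and the shift of both lists was in the same direction as that of the members. Of 19 other cyclins, CDKs and inhibitors 0 were called, and the median was -0.01. At 1.5-fold 3 were higher (15.8%, against 20.7% of all genes) and 3 lower (15.8%, against 12.7%).

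The retinoblastoma family, through which CDKs act on E2F factors, held calls in both directions. Rb1, the retinoblastoma gene, read 1683 in wild-type against 651 in the knockout, a 2.58-fold difference. Its relatives Rbl1 (p107) and Rbl2 (p130) were 2.27-fold and 2.51-fold higher, with 209 and 474 for Rbl1, and E2f8, an E2F repressor, was at least 2.54-fold higher. Of 16 measured genes of this list 3 were thus higher (18.8%, against 8.77% of all genes) and 1 lower (6.25%, against 6.37%), with a median of 0.15. At 1.5-fold 4 were higher (25.0%, against 20.7% of all genes) and 3 lower (18.8%, against 12.7%). Rb1, Rbl1 and E2f8 were read by 1 measured probe set each, and that of E2f8 lay below the floor in wild-type (82.1).

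Cdkn1a is one of many genes that p53 is known to activate, and a list of p53 and such genes was read beside it. The list was chosen with earlier results of these data known, so its shares are a description and not independent support. Of 31 measured genes of this list, which does not include Cdkn1a, 6 were at least 2-fold lower (19.4%, against 6.37% of all genes) and 0 higher. At 1.5-fold 13 were lower (41.9%, against 12.7%) and 1 was higher. The median was -0.48, and 26 of 31 lay below the median of all genes. Perp, a membrane protein of desmosomes, was 6.90-fold lower (2439 and 353), Pmaip1 (Noxa), a BH3-only protein, 3.72-fold lower (1434 and 385) and Eda2r, a TNF receptor family member, 2.84-fold lower (1093 and 385). Mdm2, the ubiquitin ligase of p53, named after its values were seen, was at -1.04 (SD 0.50 between 2 probe sets). Other genes of the list were close or on the other side, such as Btg2 (1406 and 1496) and Sesn1, whose 3 probe sets ran from -0.33 to 1.45; both were also named after their values were seen. Trp53 itself was not analysed here, and whether p53 bears on these values was not tested. With poly-A scaling the p53 list median was 0.50, where all genes had a median of 1.03. Then 7 of 31 were higher and 1 lower, against 52.4% and 2.06% of all genes. With median scaling 11 of 31 were lower, against 9.14% of all genes.

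**Figure D4:**
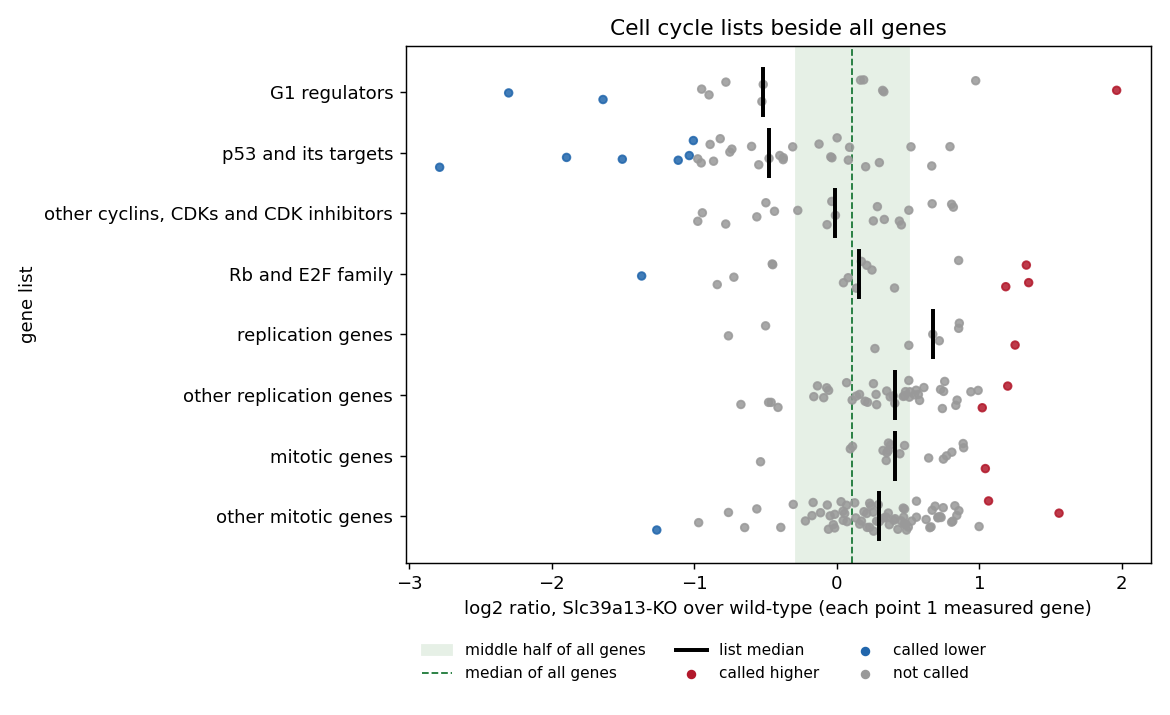
Log2 ratio, Slc39a13-KO over wild-type (horizontal axis), of each measured gene in 8 lists (vertical axis), each point 1 gene, red if called higher, blue if called lower and grey otherwise, with black lines for list medians. The green band spans the quartiles of all genes (-0.28 to 0.51) and the dashed line is their median of 0.11. Medians of the p53 list (-0.48) and the G1 regulators (-0.52) lie left of the band, that of the replication members (0.67) right of it, and those of the mitotic members (0.41) and both wider lists inside it; with poly-A scaling the p53 and G1 medians were above 0 (0.50 and 0.46).

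The position of these lists against the bulk of genes was recomputed under 10 other choices of scaling, floor, filter and probe sets. The mitotic median exceeded that of all genes by 0.27 to 0.43, and the replication median by 0.20 (brightest probe set) to 0.89 (unsuffixed probe sets). The p53 list, for which these settings were added after the data were seen, differed from all genes by -0.65 to -0.54. The G1 regulators ranged from -0.66 to -0.02. Cdkn2b and Cdkn2c kept their calls under all 10, and Cdkn1a under 9, with -0.67 under poly-A scaling.

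**Figure D5:**
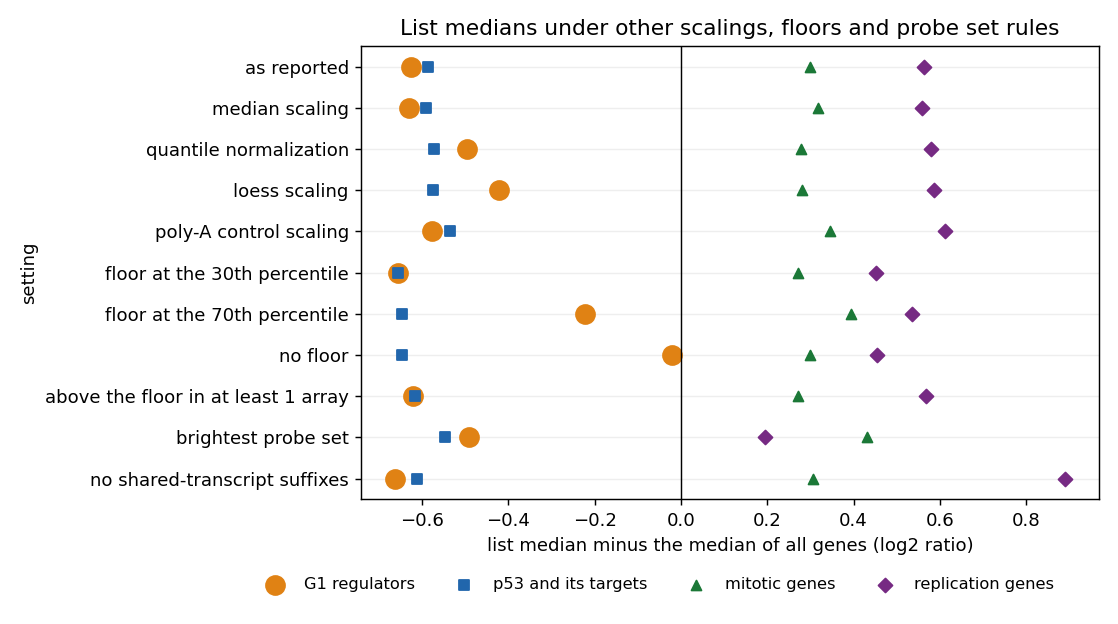
Median log2 ratio of 4 lists minus the median of all measured genes (horizontal axis) as reported and under 10 other settings (vertical axis). Mitotic genes (green triangles, 0.27 to 0.43) and replication genes (purple diamonds, 0.20 to 0.89) stay right of 0 and the p53 list (blue squares, -0.65 to -0.54) left of it in each setting, whereas the G1 regulators (orange circles) reach -0.02 with no floor.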

How the data were processed

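Total RNA from 1 wild-type and 1 Slc39a13-KO osteoblast culture was read on Affymetrix Mouse Genome 430 arrays after biotin labelling. The deposited values are linear signal intensities for each probe set, which the authors made with MAS5 (submitters' processing notes, no version), although the study's methods name gcRMA. Both arrays have a 2% trimmed mean of 500.003, so the scaling hides any difference in total mRNA, and dim MAS5 signals are noisy.

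Samples were grouped by title. Of 45101 probe sets, the 34945 with 1 gene symbol were used, and 64 controls, 932 with several symbols and 9160 with none were not. By gene ID, 34741 matched RefSeq (GRCm38.p6) and 0 symbols changed. The floor was the 50th percentile of pooled signals, and the filter on the mean favours no direction. Members and gene lists were chosen with earlier results of these data known. Beyond the members, Slc39a13, the 3 called genes furthest in each direction of each list (2 for cell type markers) and defining markers were named. No test was made with 1 array per group, and this number limits precision. Calling was checked on simulated data with changes larger than 2-fold and noise set to the spread between probe sets. That check does not cover variation between cultures or animals. Alternatives were median, quantile, loess and poly-A scaling, other floors or none, 1 array above the floor, the brightest or unsuffixed probe sets, 1.5-fold, and no same-sign rule. Python 3.11.15, numpy 2.4.6, pandas 2.3.3, scipy 1.17.1, statsmodels 0.14.6 and matplotlib 3.10.9 were used.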

Additional observations from a re-analysis of the deposited data

How the results depend on the processing

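No paired analysis was possible because each group has 1 array. With poly-A control scaling 29 of 40 measured members were called higher, against 52.4% of all genes, and 1 lower, against 2.06%. Medians were then 0.46 for G1 regulators (a reversed sign), 1.65 for replication, 1.38 for mitotic, 1.37 for other replication and 1.21 for other mitotic genes. They were 0.50 for the p53 list and 1.03 for all genes, of whose calls 96.2% were then higher in place of 57.9%. Median scaling gave 38.9%, quantile 48.5% and loess 47.6%. Of 40 members 6, 4 and 4 were then called lower, against 9.14%, 7.32% and 7.49% of all genes. For G1 regulators a floor at the 70th percentile gave a median of -0.17 and no floor 0.14. The replication median was 0.27 with the brightest probe set and 1.03 without suffixes, where 7 of 34 measured members were higher, against 9.47% of all genes. At 1.5-fold 14 of 40 were higher (against 20.7% of all genes) and 6 lower (against 12.7%). Kif11 fell short of the call with median (0.84), quantile (0.86) and loess scaling (0.84) and with its brightest probe set (0.89). Of 143 values under these alternatives, 119 kept their call (single genes), moved by less than 0.34, the median SD between probe sets (medians), or stayed within 1.5 times (counts). The median of all genes, counted among these, changed sign with median scaling (-0.13) and loess scaling (-0.003). That of other mitotic genes, also counted, fell from 0.29 to 0.07 with median scaling. The limit of 0.34 is wider than this median itself, so keeping within it says little for small medians. Signals near the floor limit Kif11, Foxm1, Cenpe, Cenpf and Aurkb, and values from 1 probe set have no spread between probe sets.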
